A study of Mus musculus with 3 samples.

Results

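The Rab genes encode the largest family of small GTPases of membrane traffic. Members were every gene whose symbol in both deposited tables was Rab followed by a number and at most 1 letter from a to d; this gave 58 genes of the 45100 gene symbols that both tables hold. The genes lie on 18 chromosomes. Each symbol contributed the row with the largest summed FPKM (fragments scaled to transcript length and to library size), so that levels could be compared between genes per length.

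A Rab protein works as a switch. Exchange factors load it with GTP on a membrane, GTP-bound Rab recruits effectors such as tethers, motors and lipid kinases, and GTPase-activating proteins return it to the GDP state. Escort protein and geranylgeranyl transferase attach the lipid anchors, and GDP dissociation inhibitor (GDI) carries the inactive protein through the cytosol. In macrophages, successive Rab proteins mark the steps by which a phagosome or endosome matures into a degradative compartment, with Rab5 proteins early and Rab7 late.

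The RNA came from RAW264.7, a mouse macrophage line that grew out of a tumour induced by Abelson leukaemia virus. Cells were seeded at low density (LD) or high density (HD), both without treatment, or at high density and, from 24 h after seeding, kept for another 24 h with 500 ng/ml of lipopolysaccharide (LPS), the bacterial cell wall lipid (HD+LPS). All 3 conditions are the same line in the same medium, and each is represented by 1 library of total RNA. Untreated HD cells were kept in parallel for the same LPS period, per the labels' protocols, while the labels do not spell out the culture time of LD. One deposited table holds LD and HD, the other holds HD and HD+LPS; the HD library therefore serves both comparisons and is listed with a different value in each. No difference below could be checked against replicates and none was given a p-value. Fewer cells of a kind and less RNA per cell cannot be told apart in such libraries.

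Values of a few genes outside the family describe the libraries. Nos2 was listed at 14.4 FPKM in HD and 111 FPKM in HD+LPS, Isg15 at 2.13 and 230 FPKM, and Lcn2 at 0.326 and 618 FPKM, so the library labelled as treated held high levels of LPS-response genes. Of the 12 macrophage markers, 9 reached 1 FPKM in LD and HD and 10 in the LPS table, with Mertk listed at 0; the 10 markers found in the density table summed to 3224 FPKM in LD and 2653 FPKM in HD, and the 11 found in the LPS table to 3090 FPKM in HD and 3419 FPKM in HD+LPS. No lymphocyte, fibroblast or epithelial marker reached 1 FPKM in any library, and the 6 neutrophil markers summed to between 4.84 and 11.3 FPKM. The files give no read totals. The spacing of the lowest FPKM values in single-transcript genes put 1 FPKM over 1 kb at about 15.7 fragments in LD and HD of the density table, 17.7 in HD of the LPS table and 14.5 in HD+LPS.

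Before the values, short stretches upstream of some Rab genes are shown, because Rab15, Rab20 and Rab19 are among the genes that passed 2-fold with LPS. The sequences come from RefSeq on GRCm38.p6, for which 47 of the 58 members had an entry, with 56 start sites. Motifs were searched on both strands in the 250 bases before each start. Of the other members past 2-fold with LPS, Rab8b and Rab22a had an entry but no motif match, and Rab7b had no entry. Rab15 has several annotated starts, and the stretch below was chosen among them after its matches were seen; it lies at chr12:76818375-76818624 on the minus strand and overlaps no annotated exon. Capitals mark an AP-1 motif (TGANTCA) and a match to the NF-kB consensus.
Rab15: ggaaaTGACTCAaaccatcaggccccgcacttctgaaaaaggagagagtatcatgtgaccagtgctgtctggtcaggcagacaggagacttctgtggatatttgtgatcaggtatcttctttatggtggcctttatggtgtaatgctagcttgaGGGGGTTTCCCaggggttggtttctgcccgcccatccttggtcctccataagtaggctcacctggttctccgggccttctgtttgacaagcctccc

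The next stretches show an E-box (CACGTG, in capitals, a palindrome and so read on both strands), chosen after the search, for Rab20 at chr8:11478669-11478698 on the minus strand, for Rab5a at chr17:53478987-53479016 and chr17:53479127-53479156 on the plus strand, and for Rab21 at chr10:115315604-115315633 on the minus strand. These 3 genes encode early endosome Rab proteins, and of them only Rab20 passed 2-fold with LPS. The E-box was also found before Rab23 and Rab27a, which belong to other role groups and whose stretches are not shown.
Rab20: cggccgggcaccCACGTGgtcgcagggctg
Rab5a, distal: aattggagaagaCACGTGacgcaaccccac
Rab5a, proximal: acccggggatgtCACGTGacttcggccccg
Rab21: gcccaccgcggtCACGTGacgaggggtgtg

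Upstream of an annotated start of Rab19 that lies inside its listed locus, a stretch at chr6:39381333-39381352 on the plus strand is shown. Capitals mark the reverse complement of an interferon-stimulated response element.
Rab19: attgcccttgTTTCCCTTTC

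Each motif was present before at most 5 members. The E-box was present before 5 of 47 members (10.6%; Rab5a, Rab20, Rab21, Rab23 and Rab27a), against 6.86% of all 27025 genes with an entry and 10.2% of the 8251 of them measured with LPS; the shares below are in this order. The NF-kB consensus was present before Rab15 and Rab28 only (4.26%, 4.46% and 5.25%), AP-1 before Rab15 and Rab34 (4.26%, 7.82% and 5.38%), and the response element before Rab19 only (2.13%, 3.46% and 3.26%). The gamma-activated site (TTCNNNGAA) was found before 5 members, Rab11a, Rab15, Rab19, Rab25 and Rab34 (10.6%, 8.13% and 6.96%), and the cyclic AMP response element (TGACGTCA) before Rab5a and Rab25 (4.26%, 1.77% and 3.22%). A match is a description of letters and not of binding. By the highest value over each gene's start sites, the members' upstream windows resembled those of measured genes in composition. The median GC content was 63.2% against 60.8%. A ratio of observed to expected CpG above 0.6 was reached by 34 of 47 members (72.3%), against 73.4% of measured genes.

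RAW264.7 cells transcribed most of the family. At 1 FPKM or more stood 39 of 58 members in LD, 40 in HD and 38 in HD+LPS, and 27 members reached 10 FPKM in every library. Summed over members, Rab FPKM was 1360 in LD and 1367 in HD of the density table, and 1246 in HD and 1458 in HD+LPS of the LPS table. These sums were 0.211%, 0.189%, 0.189% and 0.216% of all FPKM. Among members at 1 FPKM or more, the median level was 25.2 FPKM in LD and 24.0 FPKM in HD, against 14.1 and 13.9 FPKM over all genes at 1 FPKM or more. In the LPS table the medians were 21.9 FPKM in HD and 32.9 FPKM in HD+LPS, against 13.0 and 14.1 FPKM.

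The most abundant transcripts belonged to Rab proteins of the core secretory and endocytic routes. Rab7, which drives fusion of late endosomes and phagosomes with lysosomes, led in every library, at 133 FPKM in LD, 119 in HD, and 109 and 130 FPKM in HD and HD+LPS of the LPS table. Rab5c, an early endosome fusion Rab, came second, with 110, 106, 96.2 and 108 FPKM in the same order. Next at low density came Rab1b (96.4 FPKM), Rab10 (94.1), Rab14 (93.3), Rab1a (83.2), Rab2a (74.9), Rab31 (58.5), Rab24 (55.4) and Rab8a (43.8 FPKM). The top 5 members held 38.7% of Rab FPKM in LD and 34.9% in HD+LPS.

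At the other end, 6 members were listed at 0 in every library: Rab6b, Rab9b, Rab26, Rab27b, Rab38 and Rab39. A listed 0 need not mean that a gene was silent, since the widely expressed Ehd1 was also listed at 0 in every library. A further 11 stayed under 1 FPKM in every library, among them the secretory granule genes Rab3a, Rab3b, Rab3c, Rab37 and Rab44, the epithelial Rab17 and Rab25, and Rab30, Rab33a, Rab39b and Rab40b. These 17 members entered no count of ratios. Of the 9 members known from regulated secretion, Rab3d (6.995 FPKM in LD, 8.18 in HD) and Rab27a (6.83 and 4.34 FPKM) alone passed the minimum.

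**Figure D1:**
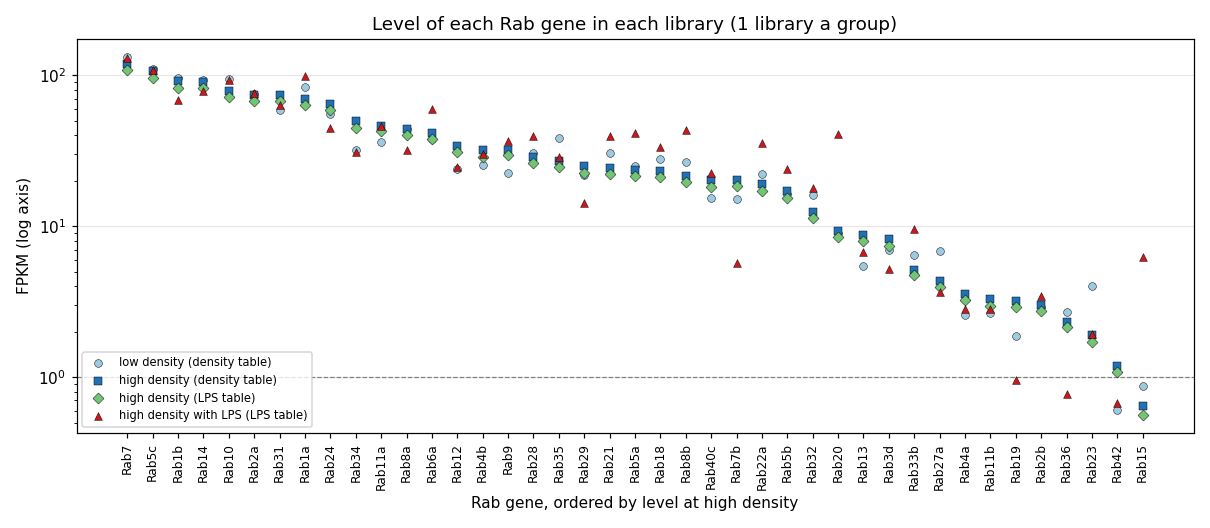
FPKM (log axis) of each Rab gene that reached the 1 FPKM minimum, ordered by its level at high density, with 1 point per library; HD appears as a square from the density table and a diamond from the LPS table. The 2 HD points of each gene lie close together, while the HD+LPS triangles stand well above the HD diamonds for Rab20 and Rab15 and below them for Rab7b, Rab19 and Rab36.

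The first comparison asked how cell density altered expression, by setting HD beside LD. Each gene's ratio was taken as log2((FPKM + 1)/(FPKM + 1)), which shrinks the differences of low genes, over genes with at least 1 FPKM in either library. No Rab gene was 2-fold higher or lower at high density among the 40 measured, where 3.54% of 10911 measured genes were at least 2-fold higher and 0.907% at least 2-fold lower (4.45% in either direction). The members' ratios ran from -0.80 to 0.62, with 21 above 0 and 19 below, where 51.4% of all measured genes were above 0. Their median was 0.02 against 0.01 for all genes, and 37 of the 40 (92.5%) lay within 1.5-fold, against 82.5% of all measured genes. The median size of a ratio, sign ignored, was 0.26 for Rab genes and 0.28 for all genes. Rab genes had a higher median FPKM than all genes, as given above, and these comparisons were not matched for level.

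The signs of small density ratios depended on scaling. When LD and HD were scaled to equal sums after leaving out the 20 most abundant genes, this moved the median of all genes to -0.20 and that of Rab genes to -0.19. The shift was nearly the same for all genes, so small positive ratios of members fell below 0 on it. On that scale the share of higher genes among all 2-fold differences was 51.5%, against 79.6% as deposited.

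The 5 highest density ratios belonged to Rab34, Rab13, Rab19, Rab9 and Rab12. Rab34, known from lysosome positioning and phagosome maturation, was listed at 31.9 FPKM in LD and 49.6 FPKM in HD, a ratio of 0.62 (0.39 after rescaling). Rab13, known from traffic to the cell surface and junctions, had 5.44 and 8.80 FPKM, a ratio of 0.60 (0.40 after rescaling). Rab19 had 1.86 and 3.19 FPKM (0.55), Rab9, of transport from late endosomes to the Golgi, 22.6 and 32.2 FPKM (0.49), and Rab12, known from degradation of recycling receptors and autophagy, 23.8 and 33.8 FPKM (0.49).

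Lowest over LD was Rab23, a regulator of Hedgehog signalling and ciliary traffic. It was listed at 4.04 FPKM in LD and 1.89 FPKM in HD, a ratio of -0.80. In plain FPKM it was 2.13-fold lower at high density; an approximate 95% counting interval, from about 268 and 126 fragments if the shortest annotated transcript was counted, ran from 1.72-fold to 2.65-fold. It covers counting error only, as do the intervals below. Rab27a, of secretory lysosomes and exosomes, had 6.83 and 4.34 FPKM (-0.55), and Rab35, of fast recycling, 38.7 and 27.1 FPKM (-0.49). Rab32, of lysosome-related organelles, had 16.1 and 12.4 FPKM (-0.35), and Rab21, an endosomal Rab of integrin traffic, 30.8 and 24.4 FPKM (-0.32). A second row for Rab35 in the density table held 5.99 and 3.88 FPKM.

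By role, the 5 measured late endosome and lysosome genes had the highest median density ratio, 0.40, with 4 above 0: Rab34, Rab9, Rab7b (15.1 and 20.2 FPKM) and Rab24 (55.4 and 64.9 FPKM). After rescaling Rab24 was at -0.0085, and Prelid1, which overlaps 62.4% of its exonic bases, was listed at 251 FPKM in LD and 378 FPKM in HD; its part in the Rab24 value was not tested. Rab7 was the exception at -0.16. The 11 measured recycling genes had a median of 0.23, the 9 of the endoplasmic reticulum (ER) and Golgi -0.07, and the 7 of early endosomes -0.04. The early endosome genes summed to 271 FPKM in LD and 274 FPKM in HD, 19.96% and 20.03% of Rab FPKM.

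The second comparison set HD+LPS beside HD. Among the 41 measured Rab genes, 4 were at least 2-fold higher with LPS on that scale (Rab15, Rab20, Rab8b and Rab22a), where 8.6% of 11010 measured genes were, and 2 were at least 2-fold lower (Rab7b and Rab19), where 5.84% were. In plain FPKM, without the pseudocount, Rab33b was also past 2-fold higher (2.03-fold) and Rab36 past 2-fold lower (2.79-fold). The share past 2-fold in either direction was 14.6% for Rab genes and 14.4% for all genes, so the family as a whole differed about as often as the background. The members' ratios ran from -1.54 to 2.21 with a median of 0.16, against 0.03 for all genes. Above 0 were 24 members and below 0 were 17, where 52.1% of all measured genes were above 0. Rab15 and Rab7b were past 2-fold under every setting tried, and Rab20 under every setting that kept it; it is left out of the one without genes overlapped by another gene.

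**Figure D2:**
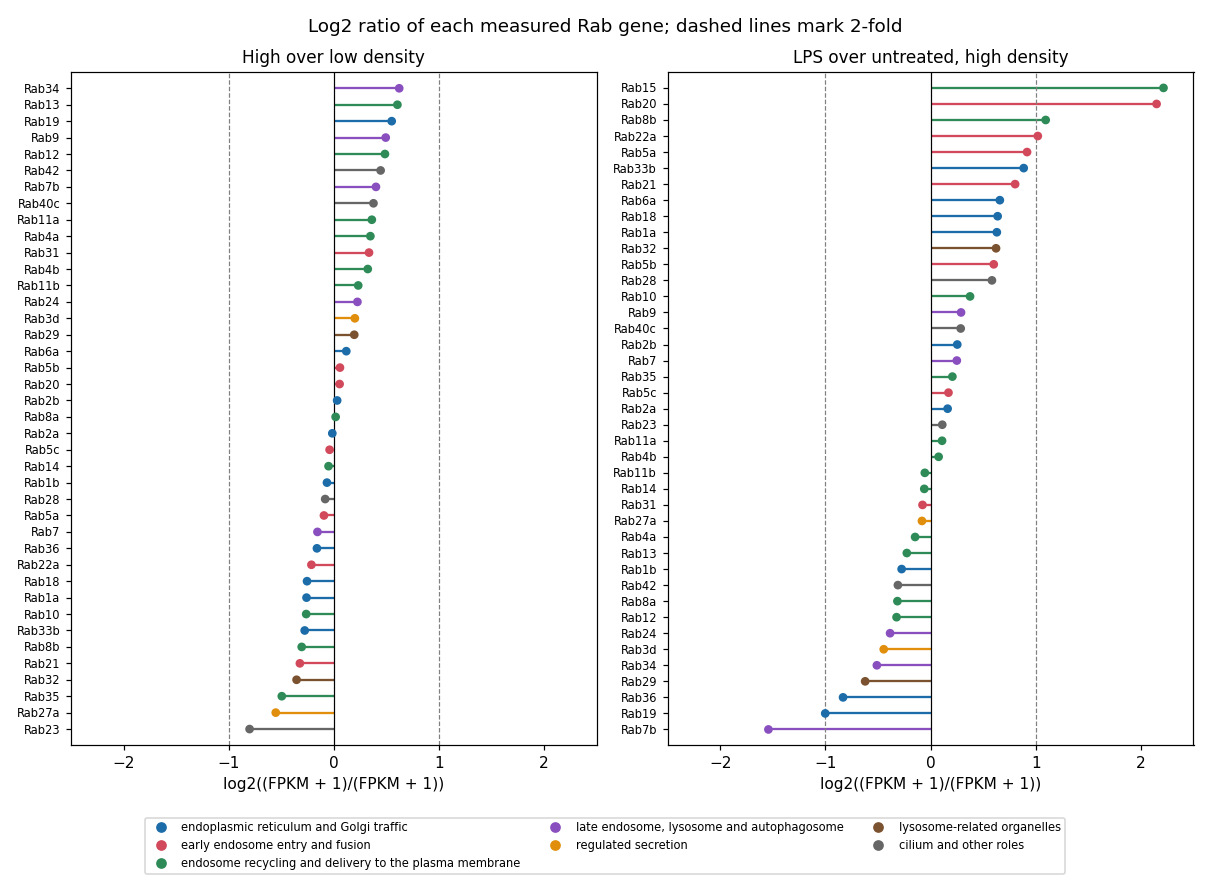
Log2 ratio of each measured Rab gene, coloured by role, for high over low density (left, 40 genes) and LPS over untreated at high density (right, 41 genes); dashed lines mark 2-fold. Ratios stay within -0.80 and 0.62 on the left and spread from -1.54 to 2.21 on the right.

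Early endosome genes had the highest median LPS ratio of the 7 role groups. Each member was placed in 1 group only, and groups held 2 to 12 measured genes, so this ranking depends on the groups chosen. Rab20, which in macrophages acts at the early phagosome and endosome, was listed at 8.95 FPKM in LD and 9.34 in HD, and at 8.46 FPKM in HD and 40.9 FPKM in HD+LPS of the LPS table. HD+LPS stood far above HD in the LPS table, while LD and HD were close in the density table. The log2 ratio was 2.15, and in plain FPKM 4.84-fold, with an approximate counting interval of 4.16-fold to 5.67-fold from about 208 and 826 fragments. Among members Rab20 moved from rank 29 in HD to rank 14 in HD+LPS. Rab20 is listed under the locus chr8:11453390-11480241 (GRCm38, as are the loci below, from the deposited tables). A listed locus can extend past the gene, and RefSeq ends Rab20 at 11478640. Of its exonic bases, 25.6% are overlapped by E230013L22Rik on the other strand, which was listed at 1.01 FPKM in HD and 4.62 FPKM in HD+LPS. No source used here says whether strand was used in counting, and reads of the pair cannot then be told apart.

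Rab22a, of transport from early to recycling endosomes (chr2:173659773-173707567), was listed at 22.1 FPKM in LD and 18.9 FPKM in HD, and at 17.2 and 35.9 FPKM in HD and HD+LPS. Its log2 ratio was 1.02 and its plain ratio 2.09-fold (counting interval 1.79-fold to 2.44-fold); with the rescaled libraries the ratio was 0.98, under the 2-fold mark. Rab5a, the early endosome fusion Rab (chr17:53479234-53539451), was just under the mark, at 21.6 FPKM in HD and 41.7 FPKM in HD+LPS, a log2 ratio of 0.92. Rab21 had 22.2 and 39.6 FPKM (0.80) and Rab5b 15.5 and 24.0 FPKM (0.60). Rab5c, the most abundant of the group, had 96.2 and 108 FPKM (0.17), and Rab31, a Golgi-to-endosome and phagosome Rab, 67.6 and 64.1 FPKM (-0.08). In sum 6 of the 7 were above 0, against 52.1% of all measured genes, and their median ratio was 0.80. Their summed level was 249 FPKM in HD and 354 FPKM in HD+LPS, 19.97% and 24.3% of Rab FPKM.

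Among recycling and plasma membrane genes, Rab15 had the highest ratio of the family. Known as a regulator of recycling endosomes, it is encoded at chr12:76797960-76822759. It was listed at 0.872 FPKM in LD and 0.644 FPKM in HD of the density table, under the minimum, and at 0.564 FPKM in HD and 6.26 FPKM in HD+LPS, so it entered through the treated library alone. The log2 ratio was 2.21 and the plain ratio 11.1-fold; the approximate counting interval, from about 7 and 67 fragments on the shortest transcript, ran from 5.37-fold to 30.2-fold. With a pseudocount of 5 the log2 ratio was 1.02.

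Rab8b, of vesicle delivery to the plasma membrane (chr9:66843609-66919705), was listed at 26.7 FPKM in LD, 21.4 FPKM in HD, and 19.7 and 43.2 FPKM in HD and HD+LPS. The log2 ratio was 1.09 and the plain ratio 2.19-fold, with a counting interval of 2.06-fold to 2.33-fold. Its paralog Rab8a had 40.2 and 32.1 FPKM (-0.32). The other 9 measured recycling genes apart from Rab15 lay between -0.32 (Rab12) and 0.38 (Rab10). Rab10, a Rab of surface delivery that in macrophages has been tied to TLR4 traffic, had 71.6 FPKM in HD and 93.1 FPKM in HD+LPS. Rab11a, of slow recycling, had 42.8 and 46.3 FPKM, and Rab14, of phagosome and Golgi-to-endosome traffic, 82.6 and 79.1 FPKM. Rab35 had 24.9 and 28.9 FPKM (0.21), and Rab4b, of rapid recycling, 28.6 and 30.3 FPKM (0.08). Below 0 lay Rab4a with 3.25 and 2.84 FPKM (-0.15), Rab13 with 8.01 and 6.70 FPKM (-0.23) and Rab12 with 31.2 and 24.8 FPKM (-0.32). The group's median was 0.01, with 6 of 12 above 0.

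Of the 5 measured late endosome and lysosome genes, 3 lay below 0 with LPS, as did 5279 of 11010 measured genes. The group's median was -0.39, against 0.03 for all genes. Rab7b, which in macrophages has been reported to promote degradation of Toll-like receptors, was listed at 15.1 FPKM in LD, 20.2 FPKM in HD, and 18.4 and 5.68 FPKM in HD and HD+LPS. HD+LPS was thus well below HD in the same table. The log2 ratio was -1.54, and in plain FPKM the gene was 3.25-fold lower with LPS, with a counting interval of 2.28-fold to 4.75-fold from about 155 and 39 fragments on the shortest transcript. Its listed locus is chr1:131688681-131715449. Rab34 had 44.8 and 31.1 FPKM (-0.51), and Rab24, an autophagy-associated Rab, 58.7 and 44.7 FPKM (-0.39). For Rab24, 62.4% of exonic bases overlap Prelid1, which was listed at 342 FPKM in HD and 258 FPKM in HD+LPS. Rab7 (0.25) and Rab9 (29.7 and 36.6 FPKM, 0.29) were above 0. The group summed to 261 FPKM in HD and 248 FPKM in HD+LPS, 20.9% and 17.0% of Rab FPKM.

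Genes of the ER and Golgi were divided. Rab19, a Golgi Rab at chr6:39380709-39390666, was listed at 1.86 FPKM in LD, 3.19 FPKM in HD, and 2.91 and 0.951 FPKM in HD and HD+LPS, a log2 ratio of -1.002 and a plain ratio of 3.05-fold lower (counting interval 1.86-fold to 5.07-fold). Rab36, a Golgi Rab of lysosome positioning, had 2.16 and 0.776 FPKM, a log2 ratio of -0.83 and 2.79-fold lower in plain FPKM (counting interval 1.85-fold to 4.43-fold). Both are low genes that met the minimum through HD alone. In the other direction lay Rab33b, a Golgi Rab that binds the autophagy factor Atg16l1, with 4.72 and 9.56 FPKM (0.89), Rab6a, of Golgi transport, with 37.7 and 60.1 FPKM (0.66), Rab18, of the ER and lipid droplets, with 21.3 and 33.7 FPKM (0.64), and Rab1a, of ER-to-Golgi transport, with 63.6 and 99.0 FPKM (0.63). Rab1b had 82.7 and 68.2 FPKM (-0.28) and Rab2a 67.9 and 76.1 FPKM (0.16). The group's median was 0.25 with 6 of 9 above 0.

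Of the lysosome-related organelle genes, Rab32 had 11.3 FPKM in HD and 17.9 FPKM in HD+LPS (0.62), and Rab29, which recruits the kinase Lrrk2 to membranes, 22.6 and 14.4 FPKM (-0.62). Rab38 was listed at 0. The secretory Rab27a had 3.96 and 3.68 FPKM (-0.08) and Rab3d 7.41 and 5.18 FPKM (-0.45). In the group of cilium and other roles, Rab28 had 26.2 and 39.7 FPKM (0.58), Rab40c, of ubiquitin ligase complexes, 18.3 and 22.5 FPKM (0.29), Rab23 1.71 and 1.93 FPKM (0.11) and Rab42 1.08 and 0.676 FPKM (-0.31).

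Paralogs were grouped by hand into 8 sets, without comparing sequences, so the counts depend on the sets chosen. Of these sets, 5 differed in their shares by at least several percentage points with LPS and 3 hardly did. Rab8b was 37.8% of the summed Rab8a and Rab8b FPKM in LD, 32.5% in HD, and 32.9% and 57.3% in HD and HD+LPS of the LPS table, so the more abundant paralog was Rab8a in LD and HD and Rab8b in HD+LPS. Rab1a was 46.3% of its pair in LD, 42.9% in HD, and 43.5% and 59.2% in HD and HD+LPS. Within the Rab5 genes, Rab5a was 16.7%, 16.0%, 16.2% and 24.0% in the same order, and Rab5c 72.5%, 72.4%, 72.2% and 62.3%. Rab7b was 10.2% of Rab7 and Rab7b in LD, 14.5% in HD in both tables and 4.2% in HD+LPS. Rab22a was 27.4% of Rab22a and Rab31 in LD, 20.4% in HD, 20.3% in HD of the LPS table and 35.9% in HD+LPS. In the other 3 sets, Rab2a was 96.1% of Rab2a and Rab2b in HD and 95.6% in HD+LPS, Rab4b 89.8% and 91.4% of Rab4a and Rab4b, and Rab11a 93.5% and 94.3% of Rab11a and Rab11b. The summed level of the Rab1 pair differed less than its shares, 146 FPKM in HD and 167 FPKM in HD+LPS.

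**Figure D3:**
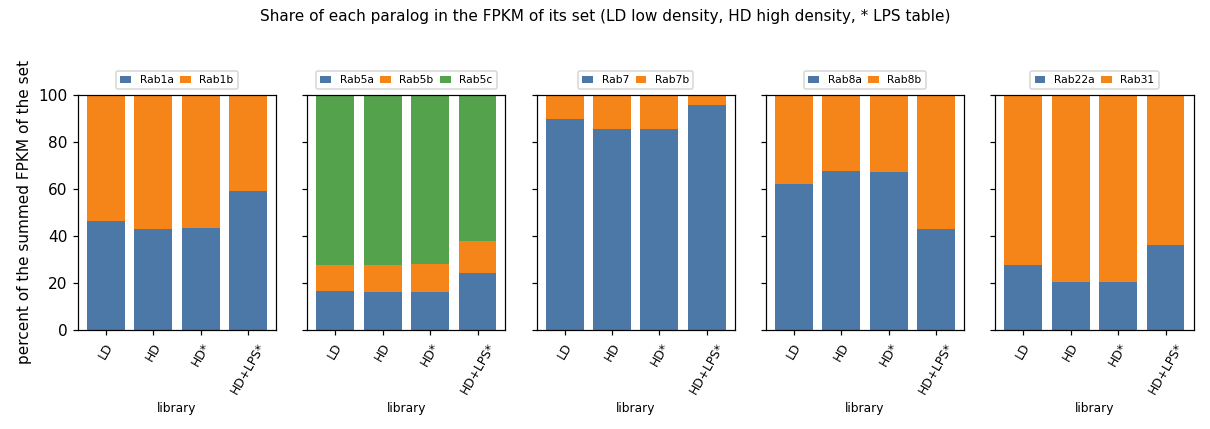
Share of each paralog in the summed FPKM of its set (percent), with 1 bar per library; the first pair of bars in each panel comes from the density table and the second pair, starred, from the LPS table. The HD+LPS bar differs most from its HD neighbour for Rab8a with Rab8b, where the Rab8b share was 32.9% and 57.3%.

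Genes that act on Rab proteins or downstream of them were described from 4 lists, 165 symbols in all, of which 136 were measured in each comparison. At high density 5 were at least 2-fold higher and 0 lower, 3.68% against the 3.54% of all genes. They were Appl2, a Rab5 effector (15.1 FPKM in LD and 51.8 FPKM in HD, log2 ratio 1.71), Trappc6a of the TRAPP exchange complex (45.1 and 135 FPKM, 1.56), Tbc1d4, which inactivates Rab10 (6.68 and 17.6 FPKM, 1.27), Rabac1, a prenylated Rab acceptor (93.6 and 198 FPKM, 1.07), and Rab11fip5, a Rab11 effector (11.6 and 24.7 FPKM, 1.03). The GDI gene Gdi2 had 154 and 263 FPKM (0.77). After rescaling 3 of the 5 were past 2-fold, with Rabac1 at 0.84 and Rab11fip5 at 0.81. The list median was 0.12 against 0.01 for all genes. Lowest were Dennd2d, an exchange factor (25.8 and 15.5 FPKM, -0.70), and Chm, the escort protein gene (5.06 and 3.25 FPKM, -0.51).

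Within 2-fold at high density, the next highest exchange factors were Sbf2 (20.1 and 40.9 FPKM, 0.99), Trappc9 (0.76) and Rab3ip (0.62), and the next lowest Dennd6a (-0.51), Rin1 (-0.41) and Dennd6b (-0.24). For Sbf2 the HD level was 19.6 FPKM in the LPS table, so its density ratio depends on the table used. Among genes listed as GTPase-activating proteins, whose activity was not checked, Tbc1d30 (0.96), Tbc1d17 (0.93) and Tbc1d22a (0.92) followed Tbc1d4. Lowest of that list were Tbc1d19 (-0.49), Sgsm1 (-0.23), Tbc1d32 (-0.15) and Tbc1d25 (-0.07). Of effectors, Rilpl2 (0.78) and Golga2 (0.72) were next, and Rufy2 (-0.46), Uso1 (-0.43), Rab11fip1 (-0.33) and Bicd2 (-0.31) lowest. Of the chaperone and prenylation genes, Rabggta had a ratio of 0.35, Rabggtb 0.21, Fnta 0.10, Rabif -0.30 and Pggt1b -0.35.

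With LPS, 9 of the 136 were at least 2-fold higher and 5 at least 2-fold lower, 6.62% and 3.68% against the background shares of 8.6% and 5.84%. Among effectors, Eea1, the tether that Rab5 recruits to early endosomes, was listed at 6.56 FPKM in HD and 33.3 FPKM in HD+LPS (2.18). Micall2, which binds Rab8 and Rab13, had 5.98 and 23.8 FPKM (1.83), Rab11fip1 2.13 and 8.998 FPKM (1.67), Lrrk2, a kinase of Rab8 and Rab10, 3.55 and 11.3 FPKM (1.44), and Exoc6b of the exocyst 4.43 and 10.1 FPKM (1.04). Among exchange factors, Rabgef1, which activates Rab5 proteins, had 6.88 and 25.7 FPKM (1.76) and Rab3il1, which activates Rab8 proteins, 27.4 and 82.6 FPKM (1.56), whereas Rin2, another Rab5 exchange factor, had 35.2 and 11.9 FPKM (-1.49) and Trappc1 69.6 and 34.3 FPKM (-1.0001).

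Among GTPase-activating proteins, Tbc1d15, which acts on Rab7, had 24.5 and 51.1 FPKM (1.03; 0.99 after rescaling). Lower were Grtp1 with 11.04 and 2.62 FPKM (-1.73), Tbc1d4 with 16.1 and 6.48 FPKM (-1.20) and Tbc1d30 with 1.36 and 0.0451 FPKM (-1.17). Chm had 3.01 and 7.17 FPKM (1.03; 0.999 after rescaling), and Gdi2 242 and 159 FPKM (-0.60). Within 2-fold with LPS lay the exchange factors Ric1 (0.88), Dennd4a (0.87), Rin3 (-0.80) and Als2cl (-0.82), and the GTPase-activating proteins Tbc1d20 (0.82), Sgsm1 (0.75), Tbc1d5 (0.70) and Tbc1d14 (-0.96). The lowest effectors were Pik3c3 (-0.67) and Pik3r4 (-0.59), subunits of the lipid kinase of early endosomes and autophagosomes, Vps8 (-0.52) and Plekhm1 (-0.42). The HD level of some of these differed between the tables: 15.3 FPKM in the density table and 17.9 FPKM in the LPS table for Pik3c3, 6.75 and 9.34 FPKM for Pik3r4, and 11.9 and 5.98 FPKM for Vps8. Among prenylation genes Pggt1b had a ratio of 0.55, Rabggtb 0.51, Fntb 0.20 and Fnta -0.09, and Rabac1 stood at -0.11. Effectors had 38 of 52 ratios above 0 and a median of 0.19, and exchange factors 21 of 42 and a median of -0.02. Of all measured genes 52.1% were above 0, with a median of 0.03.

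**Figure D4:**
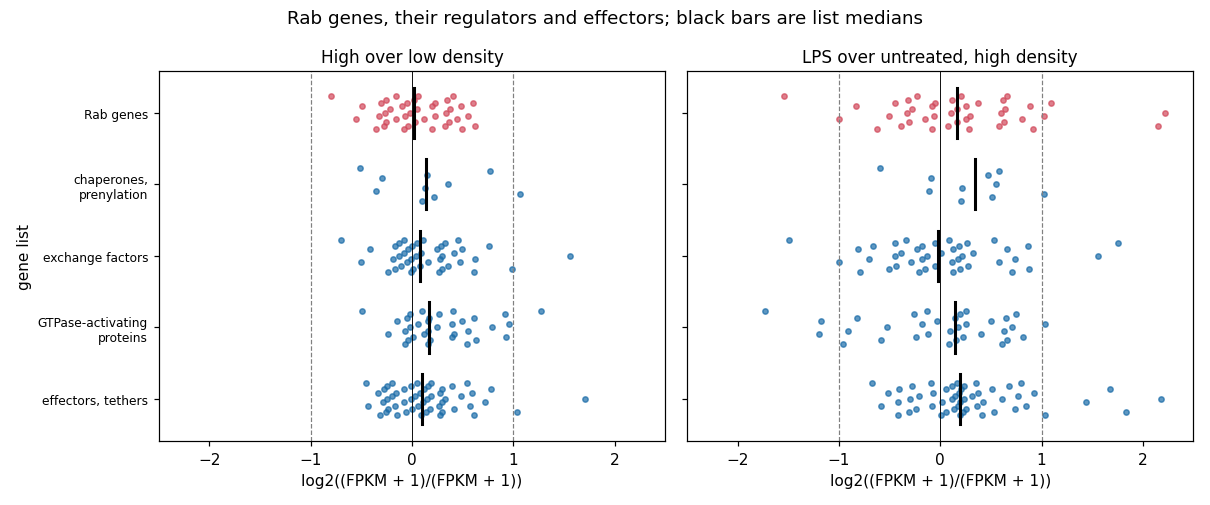
Log2 ratio of every measured Rab gene (red) and of every measured regulator or effector (blue), by list, for both comparisons; black bars are list medians and dashed lines mark 2-fold. The medians lie between -0.02 and 0.34, while single genes reach 2.21 (Rab15) and -1.73 (Grtp1) with LPS.

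The authors' deposited table of their own Cuffdiff tests called no Rab gene in either comparison, among 33 loci called for density and 45 for LPS. The smallest q-value of a member in the authors' deposited table was 0.394, for Rab20 with LPS, followed by 0.511 for Rab15 and 0.541 for Rab7b. For density, no member's q-value in the authors' deposited table was under 0.999. Those tests compared single libraries.

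Some members' values are uncertain because exons are shared. In the annotation, 8 members have over 10% of exonic bases under another gene. Read on either strand, over 10% of the 50-base stretches are shared with another gene in 10 members. For Rab2b, Rab4b, Rab6a, Rab20, Rab24, Rab33b and Rab39b this is mainly a gene that overlaps them. The counts therefore largely repeat each other. Rab2b shares 64.0% of its exonic bases with Gm43766 and Tox4, both on the other strand. Tox4 was listed at 14.9 FPKM in HD and 24.5 FPKM in HD+LPS, and Rab2b itself at 2.75 and 3.47 FPKM. Rab4b shares 65.0% and Rab6a 19.0%, the latter with Mrpl48 (25.96 and 31.0 FPKM). Rab11b (3.28 FPKM in HD) has a near copy, Rab11b-ps2, and Rab7 and Rab5b also share sequence with other loci. Without the members that overlap another gene by over 10%, 3 of 35 were at least 2-fold higher with LPS and 2 lower. Of all genes, 8.6% were higher and 5.84% lower.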

How the data were processed

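Total RNA of 3 RAW264.7 cultures was sequenced, 1 library a group. The deposited tables give FPKM per gene as made by the authors; per the submitters' processing notes FastQC, fastp, TopHat2 and Cuffdiff were used with GRCm38 and mm10. No source used here gives versions, annotation, strand setting or scaling. The authors also deposited log2 fold changes, p-values and q-values from single libraries; q-values alone were used.

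For each symbol the row with the largest summed FPKM was kept. Ratios were log2((FPKM + 1)/(FPKM + 1)) within a table, for genes with at least 1 FPKM in either library and no failed status; a ratio of 2-fold counted as a difference of size, without a test. HD is listed lower in the LPS table than in the density table (median log2 ratio -0.13 over 40 members), so levels were compared only within a table. Depth is known only from the spacing of low values; fragment numbers and 95% exact (Clopper-Pearson) intervals derived from it are approximate, assume the shortest annotated transcript and cover counting error only. Overlaps and transcript lengths came from GENCODE vM21. Starts were raised by 1 to count from 1.

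Members and lists were chosen with earlier results of these data known. Named were the members past 2-fold, the 5 highest and 5 lowest ratios, the 10 most abundant, the top member of each of 7 role groups, 9 textbook endosome, phagosome or granule genes, and up to 4 genes at either end of each regulator list, plus 1 further gene past 2-fold (Exoc6b). One result under this rule is not reported here. The scripts were tested on simulated data. Python 3.11.15, pandas 2.3.3, numpy 2.4.6, scipy 1.17.1 and matplotlib 3.10.9 were used. Alternatives were the pseudocount, the minimum, scaling, the treatment of symbols with several rows and the threshold.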

Additional observations from a re-analysis of the deposited data

How the results depend on the processing

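Of 104 alternative values of the counts and medians, 85 lay within 1.5-fold (counts) or 0.1 log2 (medians) of the reported ones and 19 moved beyond; the cause was not tested. The Rab density median, near 0, turned negative when rescaled (below), and was -0.015 at a minimum of 5 FPKM and -0.027 without overlapped members. For density, a pseudocount of 0.1 gave 1 of 40 Rab genes at least 2-fold lower (Rab23), against 2.03% of all genes. It gave 8 of 136 regulators or effectors higher, against 5.85% of all genes. A pseudocount of 5 gave 3 of 136 higher, against 1.53%. Rescaling without the 20 most abundant genes gave a Rab median of -0.19. It gave 3 of 136 regulators or effectors higher, against 2.31% of all genes. At 1.5-fold, 2 of 40 Rab genes were higher and 1 lower. Of 136 regulators or effectors, 20 were higher and 1 lower, and of all genes 11.4% and 6.06%. For LPS, a pseudocount of 5 gave 2 of 41 Rab genes higher and 1 lower. Of 136 regulators or effectors, 4 were higher and 2 lower, and of all genes 4.31% and 2.19%. Without a minimum the Rab median was 0.061. A minimum of 5 FPKM left 1 of 33 Rab genes lower, against 5.38% of all genes. At 1.5-fold, 12 of 41 Rab genes were higher and 4 lower. Of 136 regulators or effectors, 28 were higher and 16 lower, and of all genes 19.0% and 16.0%. Of 777 values of single members, 769 kept their side of 2-fold, 5 fell under it and 3 passed it; no member past 2-fold changed direction. Over all settings the LPS ratio ran from 0.96 to 1.13 for Rab8b, 0.88 to 1.06 for Rab22a and -1.52 to -0.41 for Rab19. The alternative without members that overlap another gene was chosen after seeing the data. No paired analysis was possible because each group had 1 library. With 1 library a group, spread between cultures is unknown, and low genes such as Rab15, Rab19 and Rab36 rest on few fragments.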

Other observations

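Several loci with Rab symbols fall outside the family by the symbol rule. Rab26os, listed at chr17:24528251-24528744, had 35.6 FPKM in LD and 40.2 FPKM in HD, and 36.6 FPKM in HD and 3.71 FPKM in HD+LPS of the LPS table, 9.85-fold lower in plain FPKM. Rab26 itself was listed at 0 in every library. Rab10os had 13.5 FPKM in LD and 12.1 FPKM in HD, and 8.42 and 16.0 FPKM in HD and HD+LPS. Rab5if had 240 FPKM in both HD and HD+LPS.

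Rab43 had a row of its own in the density table alone (6.42 FPKM in LD and 6.36 FPKM in HD). In the LPS table it was joined with Isy1, at 40.5 and 43.7 FPKM, and was not counted as a member. Of 17 further symbols looked up for Rab-like and related small GTPase genes, 6 were measured with LPS. Most of the others were not listed under that symbol, which says nothing of the gene's level. Rabl3 had 3.91 FPKM in HD and 10.7 FPKM in HD+LPS (log2 ratio 1.25), and Arl8b, of lysosome movement, 6.07 and 1.69 FPKM (-1.40). Arl8b had no row in the density table and 2 rows in the LPS table, of which the larger is given.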
